A study of Mus musculus with 6 samples.

Results

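Adhesion genes were followed in mouse CD4 T cells, as 42 genes for integrin chains, their cytoplasmic activators, contact receptors of the immunoglobulin family, CD44, and selectin ligands with the enzymes that decorate them. Each gene was found by its symbol in the platform annotation and read by 1 probe set, the one that was brightest by its mean log2 signal over all arrays. All 42 listed genes were found, among 18193 genes in all, and 25 of them had several probe sets. The mice were C57BL/6, aged 10 to 11 weeks, and carried loxP-flanked Fur alleles in every group (Fur flox/flox). In the Furin cKO (conditional knockout) samples a CD4 cre transgene was also present, in which the Cd4 promoter drives the recombinase from thymocyte development on, so that other cells with a Cd4-positive past are hit too, and the control samples carried the floxed alleles without it. From each genotype 3 populations were profiled: CD4+CD62L+CD44- naive cells stimulated over 2 days with plate-bound anti-CD3 and anti-CD28 (5 µg/ml of each), and CD4+CD25+FoxP3+ regulatory cells and CD4+CD62L-CD44+ memory cells, both taken fresh by sorting. Each of the 6 combinations was hybridised to 1 Affymetrix array, and the labels do not say whether animals were pooled or shared between populations.

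T cells leave the blood and scan tissues by a sequence of contacts. Selectins catch glycans on PSGL-1, CD43 and CD44 that fucosyl-, sialyl- and branching transferases have built. Integrins, heterodimers of an alpha and a beta chain, then arrest the cell, after the GTPase Rap1 and the proteins talin and kindlin have switched them from a bent to an extended form. Proprotein convertases such as furin cut the precursors of several integrin alpha chains, a step at the protein level that an RNA array does not read.

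Levels are MAS5 array signals on a linear scale, and signals under a floor of 47.6 (the pooled 40th percentile of all probe sets other than controls) were set to that floor on the way to log2 values. Signals of different genes come from different probe sets and are not set against each other. Of the 42 genes, 36 were above the floor on all 6 arrays, 3 on 4 arrays and 3 on 2 arrays. Both arrays of activated cells stood apart from the rest: 49.4% to 49.8% of probe sets reached the floor there, against 62.6% to 67.4% on the other arrays. The hybridisation control bioB read 753.8 to 852.3 there and 2213.0 to 4930.3 elsewhere. RNA quality, as the 3'/5' ratio of beta-actin, differed by population too: it was 1.24 and 1.22 in activated cells, 1.36 and 1.35 in regulatory cells, and 1.56 and 1.93 in memory cells on the cKO and control arrays. Its part in the population differences was not tested. Population and hybridisation therefore cannot be told apart.

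Furin itself, read by 1 probe set, gave 468.3 on the cKO and 515.8 on the control array of activated cells, and 410.0 against 547.2 in regulatory cells. In memory cells it gave 2202.9 on the array labelled Furin cKO against 647.4 on the control array, so that the signal went against the label. The position of this probe set within Fur was not known here, and one outside the deleted part checks nothing. The marker Foxp3 went against the labels as well. It read 33.8 on the cKO and 50.4 on the control array of cells labelled regulatory, and 1116.4 and 1358.2 on the memory arrays. The other 6 of 7 regulatory markers, Ikzf2, Il2ra, Ctla4, Tnfrsf18, Nrp1 and Capg, were higher on both arrays labelled regulatory than on both memory arrays. Memory markers were higher on both memory arrays for 6 of 7 genes. Arrays are called by their labels below, and every direction rests on them.

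The first question was how far adhesion genes differ between the populations. In activated cells most integrin chains and most of the machinery that switches integrins on read lower than in both fresh populations. A small group with alpha-actinin, vinculin and ALCAM read higher by the probe set chosen for each gene. Both further probe sets of alpha-actinin and some of those of ALCAM went the other way. Population and genotype entered an additive limma fit over all 6 arrays and 15798 genes, with Benjamini-Hochberg adjustment, and a gene was called at an adjusted p of 0.05 or less. The model has 2 residual degrees of freedom, and its error is the spread left between the genotypes, not between animals. Against regulatory cells, 20 of the 42 genes (47.6%) were called lower in activated cells and 6 (14.3%) higher, where 26.7% and 18.2% of all genes tested were. Against memory cells, 25 (59.5%) were called lower and 5 (11.9%) higher, where 27.1% and 17.4% of all genes were. The same 20 genes were lower in both comparisons and the same 5 higher; the comparisons share the activated arrays. Each called gene had both activated arrays on 1 side of both arrays of the other population. With the memory array labelled cKO left out, 18 of the 20 lower calls and 3 of the 6 higher calls against regulatory cells were kept, and 19 of 25 and 2 of 5 against memory cells. The higher calls lost were those of Alcam and Tln2 in both comparisons, of Ajuba against regulatory cells and of Vcl against memory cells. The lower calls lost were those of St3gal4 and Rapgef1 in both comparisons, and of Itga2, Icam1, Cd47 and Spn against memory cells.

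All genes together had a median log2 difference of -0.23 against regulatory and -0.21 against memory cells, a shift that quantile normalization and cyclic loess removed. With those normalizations 55.1% and 56.3% of the genes called against regulatory cells were higher, against 40.5% with the deposited scaling. Against memory cells the shares were 51.4% and 52.4%, against 39.1%. Every called adhesion gene lay on its own side of that median, and the median of the 42 genes was 0.45 below it against regulatory and 0.80 below it against memory cells. Of the T cell markers, the CD3 chain genes Cd3d, Cd3e and Cd3g and also Cd4 were lower on both activated arrays than on the other 4, and Cd5 was not. The summed signal of 5 T cell markers was 30244.6 on the cKO and 30738.1 on the control array, 64404.8 and 67019.8 on the regulatory arrays, and 84529.2 and 76664.2 on the memory arrays. Markers of B cells and of myeloid cells moved the same way. Of 7 B cell markers 2 were above the floor on each activated array, with sums of 2501.6 and 2600.7, whereas 6 or 7 were on the other arrays, with sums of 13239.8 to 18636.1. Myeloid and dendritic cell markers summed to 1333.0 and 1369.0 on the activated arrays, with 3 and 5 of 9 above the floor, to 6122.5 and 6454.0 on the regulatory arrays, and to 18449.6 and 35909.3 on the memory arrays. NK cell, granulocyte, erythroid and stromal markers were all under the floor on the activated arrays. Plasma cell markers summed to 4246.1 and 4267.2 there and to 12411.4 to 25337.3 elsewhere, and CD8 T cell markers to 202.8 and 155.3 there and to 697.0 to 1070.2 elsewhere. Their part in the differences was not tested, and in bulk RNA fewer cells of a type and less RNA per cell cannot be told apart.

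**Figure D1:**
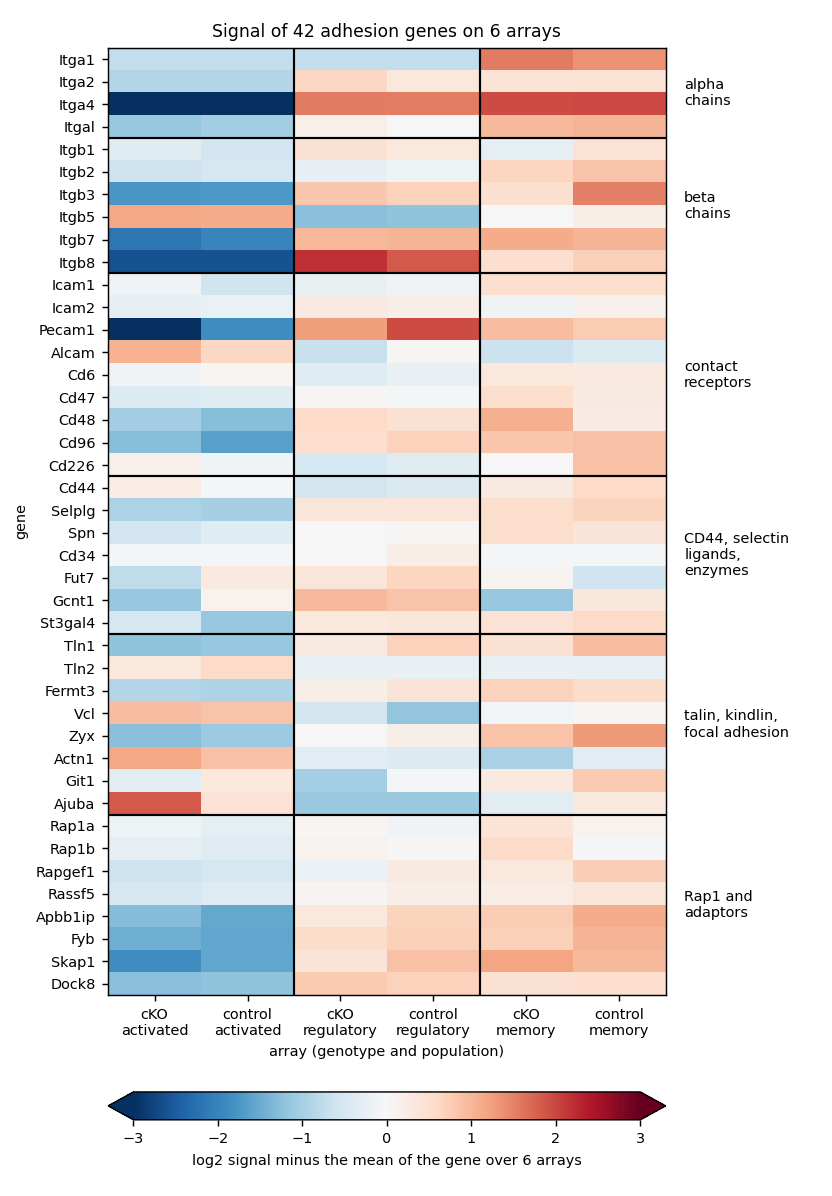
Each row is 1 of the 42 genes and each column 1 array, cKO left of control within a population; colour gives the log2 signal, floored, minus the mean of the gene over the 6 arrays, and the scale ends at 3 either way. Itga4, Itgb7, Itgb8 and Pecam1 are blue on both activated arrays and red on the other 4, Actn1 is red on both activated arrays and blue on the other 4, and the columns of 1 population mostly share their colours.

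The alpha4 chain had the widest log2 difference among the genes of the 42 that were above the floor on all 6 arrays. Itga4 encodes alpha4, which pairs with beta1 to bind VCAM-1 and with beta7 to bind MAdCAM-1 in the gut. On the cKO and control arrays Itga4 read 276.2 and 243.7 in activated cells, 8727.5 and 8561.8 in regulatory cells, and 11585.9 and 11620.6 in memory cells. Both activated arrays lay far below the other 4, and the genotypes differed by at most 1.13-fold within a population. The log2 difference of activated cells was -5.06 ± 0.14 (SE, limma adjusted p = 0.001518) against regulatory cells, 33.3-fold lower, and -5.48 ± 0.14 (adjusted p = 0.001425) against memory cells, 44.7-fold lower. The 4 further Itga4 probe sets were lower in activated cells too. In the brightest of these the log2 difference was -3.16 against regulatory and -3.47 against memory cells, and in the other 3 both activated arrays were under the floor, so that they give only a bound.

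Its gut-homing partner beta7 followed. Itgb7 read 771.2 on the cKO and 887.6 on the control array of activated cells, 6959.1 and 7049.8 in regulatory cells, and 7485.4 and 7041.5 in memory cells. Activated cells were 8.47-fold lower than regulatory cells (log2 difference -3.08 ± 0.15, adjusted p = 0.001717) and 8.78-fold lower than memory cells (-3.13 ± 0.15, adjusted p = 0.001629). Regulatory and memory arrays overlapped. The promoter windows of these partner genes are shown because both genes were lower in activated cells. They run from 250 bases before to 50 bases after the start site, from RefSeq on build GRCm38.p6, where Itga4 spans chr2:79255176-79255475 on the plus strand and Itgb7 chr15:102231886-102232185 on the minus strand. Capitals mark TGTGGT on either strand, the core that RUNX factors bind.
Itga4: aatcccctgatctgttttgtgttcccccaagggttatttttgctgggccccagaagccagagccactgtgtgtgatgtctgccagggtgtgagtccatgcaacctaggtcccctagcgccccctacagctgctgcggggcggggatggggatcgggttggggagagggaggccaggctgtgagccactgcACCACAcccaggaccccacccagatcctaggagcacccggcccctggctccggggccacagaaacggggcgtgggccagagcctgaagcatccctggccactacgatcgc
Itgb7: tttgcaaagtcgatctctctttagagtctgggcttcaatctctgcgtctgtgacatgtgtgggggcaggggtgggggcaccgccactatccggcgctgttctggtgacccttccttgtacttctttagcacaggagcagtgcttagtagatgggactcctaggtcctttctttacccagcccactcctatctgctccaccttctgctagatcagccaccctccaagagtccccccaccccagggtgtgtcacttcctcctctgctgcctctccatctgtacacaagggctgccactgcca
The motif occurred once in the Itga4 window, 60 bases before the start site, and not in that of Itgb7. It was found in 16.8% of the 32851 windows in the RefSeq table and in 6 of 36 windows (16.7%) of the 31 adhesion genes that had one there.

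LFA-1, the main leukocyte integrin, consists of alphaL and beta2 and binds ICAM-1 and ICAM-2. The alphaL gene Itgal read 5323.3 on the cKO and 5672.1 on the control array of activated cells, 12961.2 and 11834.7 in regulatory cells, and 23054.0 and 23480.0 in memory cells. The populations did not overlap, and the order was activated, regulatory, memory in both genotypes. Activated cells were 2.25-fold lower than regulatory cells (adjusted p = 0.005627) and 4.23-fold lower than memory cells (adjusted p = 0.001881). The other Itgal probe set differed by only -0.45 and -0.26 on the log2 scale. Itgb2, the beta2 gene, read 8097.6 and 8821.1 in activated cells, 10536.9 and 11173.2 in regulatory cells, and 19476.0 and 22635.1 in memory cells on the cKO and control arrays. It was 2.48-fold lower in activated than in memory cells (adjusted p = 0.00374), and the difference of -0.36 ± 0.14 from regulatory cells missed the threshold (adjusted p = 0.1057).

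The beta8 and beta3 chains pair with alphav. Itgb8 encodes beta8, which with alphav releases active TGF-beta from its latent complex. It read 41.0 on the cKO and 27.7 on the control array of activated cells, both under the floor, 1331.1 and 1037.5 in regulatory cells, and 415.1 and 476.3 in memory cells. Activated cells were therefore at least 24.7-fold lower than regulatory cells (adjusted p = 0.001518) and at least 9.34-fold lower than memory cells (adjusted p = 0.00179). Itgb3, the beta3 gene, also known from platelets, read 159.7 and 163.3 in activated cells, 942.0 and 867.6 in regulatory cells, and 757.6 and 1536.5 in memory cells on the cKO and control arrays. It was 5.60-fold and 6.68-fold lower in activated than in regulatory and memory cells (adjusted p = 0.00632 and 0.004871). Of 6 platelet and megakaryocyte markers, 2 were above the floor on each activated array, 2 (cKO) and 3 (control) on the regulatory arrays and 5 (cKO) and 4 (control) on the memory arrays, and their signals summed to 227.5 and 260.2 in activated cells, 477.0 and 639.8 in regulatory cells, and 683.7 and 550.5 in memory cells on the cKO and control arrays. Gp1bb and Itga2b among them were called lower in activated cells against both populations, and Gp5 against memory cells. Their part in the Itgb3 difference was not tested.

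Of the collagen receptor chains, alpha1 was read in memory cells and alpha2 in both fresh populations. Itga1, the alpha1 chain, read 3.7 and 6.8 in activated cells, 33.0 and 9.4 in regulatory cells, and 232.8 and 201.8 in memory cells on the cKO and control arrays. Only the memory arrays were above the floor, and activated cells were at least 4.55-fold lower than memory cells (adjusted p = 0.001854). Itga2, the alpha2 chain, was under the floor in activated cells and read 108.0 to 133.4 in regulatory and 115.8 to 116.9 in memory cells, at least 2.52-fold and 2.44-fold lower in activated cells (adjusted p = 0.005053 and 0.005216). The shared beta1 chain differed less: Itgb1 read 2716.6 and 2361.2 in activated cells, 4795.8 and 4359.6 in regulatory cells, and 2915.6 and 4697.6 in memory cells on the cKO and control arrays, and neither difference passed the test (adjusted p = 0.06698 against regulatory and 0.1903 against memory cells).

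Among the chains, beta5 alone was called higher in activated cells. Itgb5, another partner of alphav, read 3364.2 and 3260.9 on the cKO and control arrays of activated cells, 629.8 and 657.8 in regulatory cells, and 1490.3 and 1737.6 in memory cells. The log2 differences were 2.36 ± 0.15 (adjusted p = 0.001912) and 1.04 ± 0.15 (adjusted p = 0.007643). The probe set behind them is of the x type, whose probes can also match other transcripts. The 3 further Itgb5 probe sets read at most 105.5 on any array and had at least 1 activated array under the floor, so that they give no second reading of this difference.

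**Figure D2:**
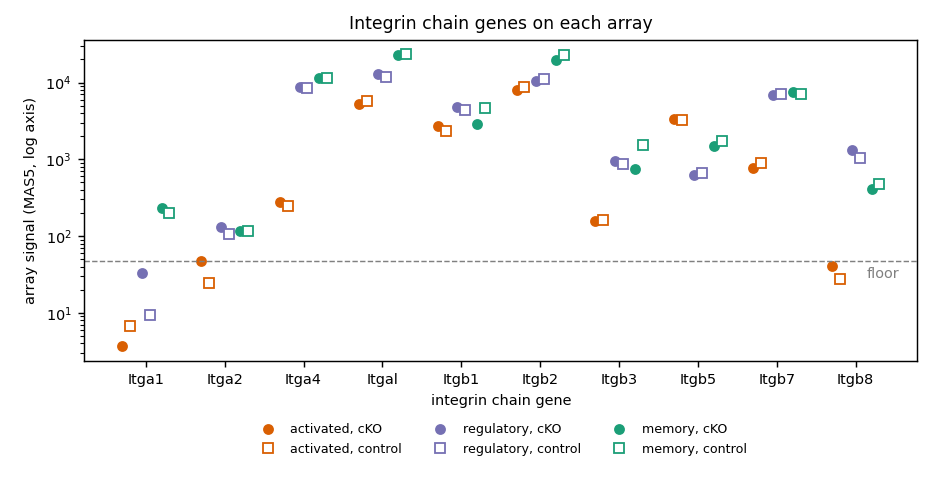
Array signal of the 10 integrin chain genes on a log axis, with filled circles for cKO and open squares for control arrays and 1 colour per population; the dashed line is the floor of 47.6. Itga4 lies at 276.2 (cKO) and 243.7 (control) in activated cells and at 8561.8 or more elsewhere, and among points above the floor the genotypes of a population lie furthest apart for Itgb3 (757.6 in cKO and 1536.5 in control cells) and Itgb1 (2915.6 and 4697.6), both in memory cells.

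Contact receptors were divided. Pecam1 encodes CD31, a homophilic receptor of leukocytes, platelets and endothelium. It read 49.5 on the cKO and 111.9 on the control array of activated cells, 975.1 and 1567.9 in regulatory cells, and 774.3 and 688.9 in memory cells, 16.6-fold and 9.81-fold lower in activated cells (adjusted p = 0.002743 and 0.00383). Of 7 endothelial markers, 3 (cKO) and 1 (control) were above the floor in activated cells, 3 and 4 in regulatory cells, and 5 and 4 in memory cells, with sums of 535.8 and 381.0, 281.5 and 459.4, and 562.6 and 556.8 on the cKO and control arrays. Eng was called higher in activated cells against both populations and Cdh5 lower against memory cells. Their part in the Pecam1 difference was not tested. Cd96, whose product shares its ligand with CD226, was 4.18-fold and 4.96-fold lower in activated cells (adjusted p = 0.003036 and 0.00241), and Cd48, which encodes the ligand of CD2 in the mouse, 3.19-fold and 3.54-fold lower (adjusted p = 0.006476 and 0.005123). Cd226 itself read 90.5 to 239.2 on all arrays and was not called (adjusted p = 0.3022 and 0.3601). The integrin ligand gene Icam1 was 1.82-fold lower in activated than in memory cells (adjusted p = 0.0309), and Icam2 was called in neither comparison (adjusted p = 0.0834 and 0.3027). Cd47, which signals against engulfment, read 7395.3 and 7574.5 in activated cells, 9944.7 and 9510.3 in regulatory cells, and 13985.1 and 11823.9 in memory cells on the cKO and control arrays. By this probe set it was called against memory cells only (1.72-fold lower, adjusted p = 0.01677, and 0.1147 against regulatory cells). The 4 further Cd47 probe sets were lower in activated cells against both populations. In the brightest of these the log2 difference was -1.85 against regulatory and -1.94 against memory cells.

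ALCAM and its receptor CD6 differed in their pattern. Alcam read 1032.7 and 762.3 in activated cells, 315.8 and 512.7 in regulatory cells, and 317.4 and 376.6 in memory cells on the cKO and control arrays, 2.21-fold and 2.57-fold higher in activated cells (adjusted p = 0.04165 and 0.02565). Of 4 further Alcam probe sets 1 went the other way against regulatory and 2 against memory cells. Cd6 read 4581.1 to 7283.6 on all arrays and was not called (adjusted p = 0.2163 and 0.1483).

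Of the selectin ligand genes, Selplg and St3gal4 were lower in activated cells against both populations. Selplg, which encodes PSGL-1, read 3786.9 on the cKO and 3673.8 on the control array of activated cells, 9484.1 and 9395.2 in regulatory cells, and 10554.3 and 11712.1 in memory cells, 2.53-fold and 2.98-fold lower (adjusted p = 0.004103 and 0.002826). The sialyltransferase gene St3gal4 was 2.21-fold and 2.52-fold lower (adjusted p = 0.02127 and 0.01377). The call against regulatory cells was lost with quantile normalization, cyclic loess, no floor or the memory array labelled cKO left out, and that against memory cells with the last. Spn, which encodes CD43, was called lower against memory cells (1.91-fold, adjusted p = 0.01213, and 0.07415 against regulatory cells). The other Spn probe set had wider log2 differences, -2.50 against regulatory and -2.73 against memory cells. Fut7 and Gcnt1, for the fucosyltransferase and the core branching enzyme of selectin ligands, were called in neither comparison. Cd34 was above the floor on the regulatory arrays only, at 48.8 and 56.7. Cd44, the hyaluronan receptor by which naive and memory cells were sorted, was not called by its chosen probe set (adjusted p = 0.08071 and 0.2456). That probe set read 7146.1 and 5916.5 in activated cells, 4229.5 and 4574.0 in regulatory cells, and 7404.0 and 9133.7 in memory cells on the cKO and control arrays. A further bright Cd44 probe set read 7211.2 and 6843.2 in activated cells and 2931.7 and 2932.5 in regulatory cells on these arrays. Its log2 differences were 1.26 against regulatory and 0.23 against memory cells. Those of a dimmer Cd44 probe set were 0.05 and -0.29.

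Proteins that couple integrins to actin showed both directions. Tln1, the main talin of leukocytes, was 3.16-fold lower in activated than in regulatory and 3.63-fold lower than in memory cells (adjusted p = 0.003882 and 0.002946). Its 2 further probe sets differed: 1 had log2 differences of 0.03 against regulatory and -0.17 against memory cells, and the other of -2.73 and -2.55. Fermt3, which encodes kindlin-3, read 6847.6 and 6661.0 in activated cells, 14245.3 and 16481.5 in regulatory cells, and 20472.8 and 18547.0 in memory cells on the cKO and control arrays, 2.27-fold and 2.89-fold lower (adjusted p = 0.006911 and 0.003692). The LIM protein gene Zyx was 2.41-fold and 4.69-fold lower (adjusted p = 0.005216 and 0.001867). On the other side stood Vcl, for vinculin, which reinforces talin, and Actn1, for an actin cross-linker. Vcl read 499.2 and 474.9 in activated cells, 181.0 and 116.4 in regulatory cells, and 248.3 and 276.0 in memory cells on the cKO and control arrays, 3.35-fold and 1.86-fold higher (adjusted p = 0.00689 and 0.04041). Actn1 read 7217.0 and 5947.8 in activated cells, 2608.3 and 2452.3 in regulatory cells, and 1649.2 and 2586.7 in memory cells on the cKO and control arrays, 2.59-fold and 3.17-fold higher (adjusted p = 0.01804 and 0.01052). Both further Actn1 probe sets went the other way, by -0.69 and -1.31 against regulatory and by -0.35 and -1.26 against memory cells. The mean over Actn1 probe sets was lower by 0.21 against regulatory cells, not called. Tln2, the second talin gene, was by its chosen probe set above the floor on the activated arrays only, at 69.0 and 83.0. A further Tln2 probe set was under the floor on both activated arrays. It read 67.1 on the cKO memory and 50.7 on the cKO regulatory array, and was under the floor on their controls. Its log2 differences went the other way, -0.05 against regulatory and -0.25 against memory cells. Ajuba was at least 4.75-fold higher in activated than in regulatory cells (adjusted p = 0.02696), with both regulatory arrays under the floor. Git1, for a focal adhesion scaffold, was not called.

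The promoter of Vcl is shown as a gene on the higher side with the motif of a known actin-linked factor. Capitals mark the CArG box, the site bound by serum response factor (RefSeq, GRCm38.p6, chr14:20929148-20929447, plus strand).
Vcl: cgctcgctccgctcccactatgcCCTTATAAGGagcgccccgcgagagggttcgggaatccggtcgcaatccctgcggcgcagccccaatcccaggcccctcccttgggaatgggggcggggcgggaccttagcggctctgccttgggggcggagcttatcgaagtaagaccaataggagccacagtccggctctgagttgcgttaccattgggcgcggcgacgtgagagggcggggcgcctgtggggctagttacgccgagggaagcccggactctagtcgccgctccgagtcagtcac
The box lies 227 bases before the start site. It was found in 1.6% of all windows and in 1 of the 36 adhesion gene windows, that of Vcl.

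The Rap1 pathway leaned 1 way in activated cells: 6 of 8 genes were called lower against each of the other populations, where 26.7% and 27.1% of all genes were, and 0 higher, where 18.2% and 17.4% were. Skap1, which encodes the adaptor SKAP55, read 1052.9 and 1319.5 in activated cells, 5063.4 and 7038.9 in regulatory cells, and 8760.3 and 7611.0 in memory cells on the cKO and control arrays, 5.07-fold and 6.93-fold lower (adjusted p = 0.003053 and 0.002182). Its binding partner gene Fyb, for ADAP, was 4.41-fold and 5.20-fold lower (adjusted p = 0.002363 and 0.00187). Apbb1ip, for RIAM, which links Rap1 to talin, was 3.74-fold and 5.13-fold lower (adjusted p = 0.004404 and 0.002728). Dock8, an exchange factor needed for T cell migration, was 3.93-fold and 3.27-fold lower (adjusted p = 0.002096 and 0.002386). Rassf5, for the Rap1 effector RAPL, and the exchange factor gene Rapgef1 were lower by 1.51-fold and 1.53-fold against regulatory cells (adjusted p = 0.02704 and 0.04316), and by 1.67-fold and 2.15-fold against memory cells (adjusted p = 0.01445 and 0.0087). The GTPase genes themselves were not called by their chosen probe sets. Rap1b read 15933.8 and 14838.8 in activated cells, 20761.7 and 19669.4 in regulatory cells, and 28542.2 and 18861.4 in memory cells on the cKO and control arrays (adjusted p = 0.1834 and 0.07171), and Rap1a had adjusted p = 0.3164 and 0.05191. The 2 further Rap1b probe sets went opposite ways. In 1 the log2 difference was -1.16 against regulatory and -1.09 against memory cells, and in the other 0.76 and 0.45.

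**Figure D3:**
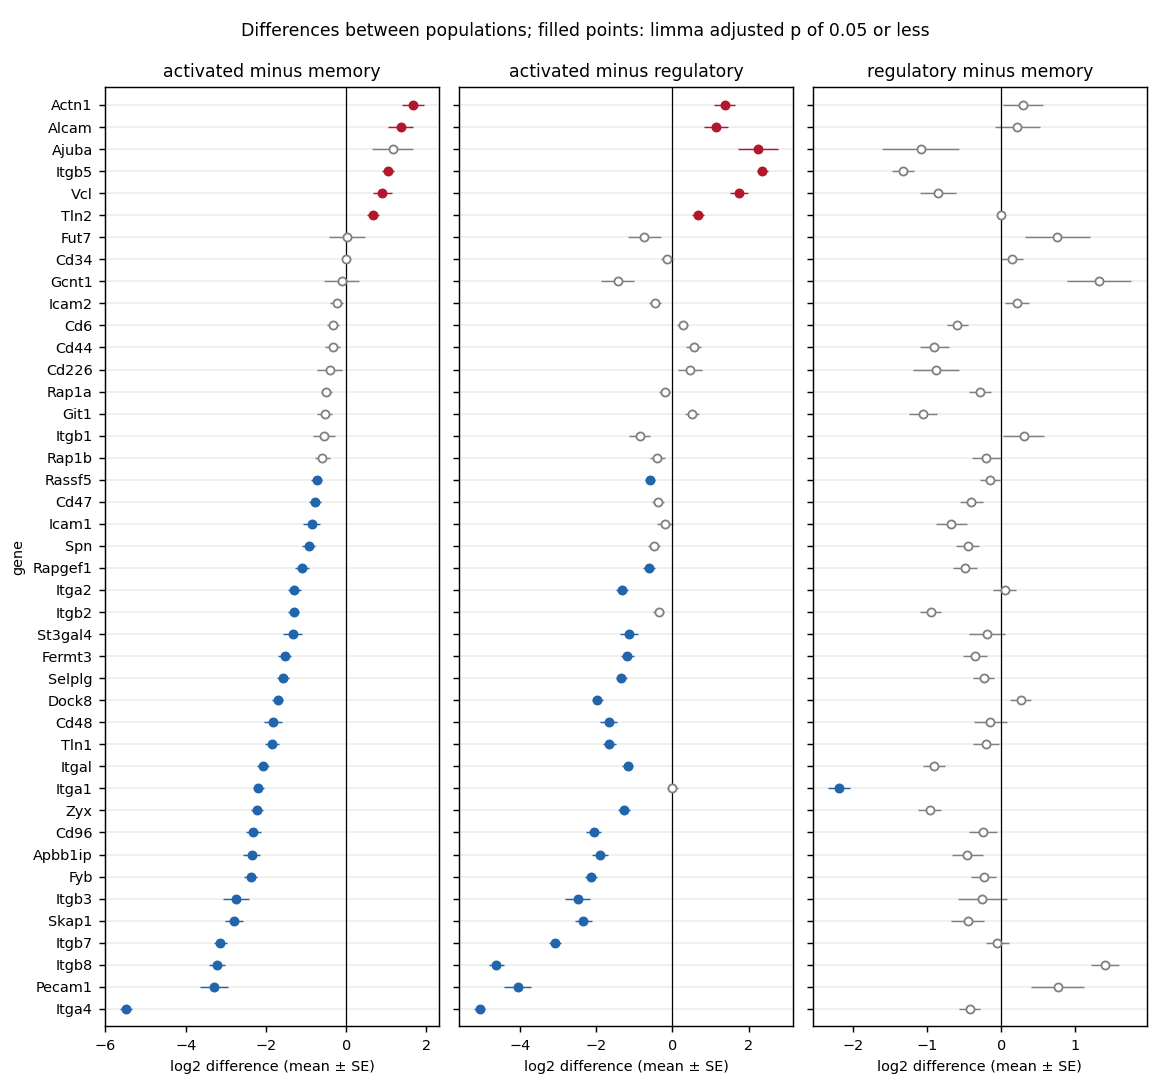
Log2 difference of each of the 42 genes between populations with its SE from limma (Itga4 and Pecam1 at the bottom, Actn1 at the top of each panel); filled red and blue points passed the test as higher and lower, and open points did not. The panels with activated cells hold 26 filled points against regulatory and 30 against memory cells, while the panel of regulatory minus memory cells holds 1, Itga1.

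Further adhesion genes outside the 42 were counted in the same fit. Of 117 such genes listed, 105 were tested, and 53 were called lower and 9 higher in activated than in regulatory cells, and 54 lower and 11 higher than in memory cells. Over all genes 26.7% were lower and 18.2% higher than in regulatory cells, and 27.1% and 17.4% than in memory cells. Singled out after their values were seen were Rasgrp2, for a Rap1 exchange factor, and Itgae, for the alphaE chain. Rasgrp2 read 26.5 and 38.4 in activated cells, both under the floor, 1926.3 and 1460.6 in regulatory cells, and 1187.4 and 851.7 in memory cells on the cKO and control arrays. Itgae read 32.6 and 20.2 in activated cells, also under the floor, 4051.3 and 3327.5 in regulatory cells, and 1069.0 and 2287.2 in memory cells on the cKO and control arrays.

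Regulatory and memory cells were then set against each other. By size their adhesion genes were closer, with a median log2 difference of -0.25. That of activated cells was -0.68 against regulatory and -1.02 against memory cells. The list still leaned lower in regulatory cells: the median of all genes was -0.01, and 26.2% of the 42 were higher, against 48.2% of all genes. Few genes of any kind were called, so the calls do not measure closeness. Of the 42, 1 was called lower in regulatory cells and 0 higher, where 0.329% and 0.057% of all genes were. The call was Itga1, for the alpha1 collagen receptor chain, whose regulatory arrays were under the floor, so that it was at least 4.55-fold lower there (adjusted p = 0.04547). At an unadjusted p under 0.05 there were 14 lower and 2 higher, 16 of 42, where 3364 of all 15798 genes passed. Itgb8 had the largest positive difference, 2.64-fold with every regulatory array above every memory array, but missed the threshold (adjusted p = 0.07153). Itgb5, Zyx, Itgb2 and Itgal had log2 differences of -1.32, -0.96, -0.95 and -0.91 (adjusted p = 0.06166, 0.08236, 0.07604 and 0.08393). Itga4 and Itgb7 differed by -0.42 ± 0.14 and -0.05 ± 0.15 (adjusted p = 0.2047 and 0.8667). Of 105 further adhesion genes 2 were lower, Itgax, also a myeloid marker, and St3gal6. The Itga1 call rests on the labels, which Foxp3 goes against, and it was kept in 1 of the 7 alternative fits, being lost also when the memory array labelled cKO was left out.

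The second question was how adhesion genes differ between Furin cKO and control cells within a population. With 1 array for each genotype there is no replicate check and no p-value, and a gene past 2-fold describes 2 arrays. In activated cells 38 adhesion genes were measured, being above the floor on at least 1 of the 2 arrays. On the cKO array 1 gene was past 2-fold as higher (2.63%) and 3 as lower (7.89%), where 0.391% and 0.372% of all 10749 genes were. Ajuba, a LIM protein of cell contacts, read 366.5 on the cKO and 139.6 on the control array, 2.63-fold higher, and 34.8 against 4.6 in regulatory and 81.4 against 125.7 in memory cells. The 3 lower genes were dim. Gcnt1, for the core branching enzyme, read 93.8 against 222.8 on the control array, 2.38-fold lower, and its other probe set fell by 0.74 on the log2 scale. Pecam1 read 49.5 against 111.9, 2.26-fold lower, and Fut7 read 79.9 against 167.6, 2.10-fold lower. In the other populations Fut7 read 175.3 on the cKO and 211.9 on the control array (regulatory), and 144.0 against 90.2 (memory). With the floor at the 60th percentile, a signal of 144.8, 0 genes were at least 2-fold lower. The median log2 fold of the 38 genes was 0.00, as against -0.01 for all genes.

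In memory cells 2 of 40 measured genes were at least 2-fold lower (5.0%) and 0 higher on the array labelled cKO, where 3.64% and 5.62% of all 14226 genes were. Gcnt1 read 93.2 on the cKO and 260.5 on the control array, 2.80-fold lower, and its other probe set had a log2 fold of -0.57. Itgb3 read 757.6 against 1536.5, 2.03-fold lower, whereas the other Itgb3 probe set had a log2 fold of 0.29. Cd48 was 1.75-fold higher (16368.3 against 9340.8) and Itgb1 1.61-fold lower (2915.6 against 4697.6). Actn1 was 1.57-fold lower (1649.2 against 2586.7), and its other probe sets had log2 folds of -2.11 and -1.09. Adhesion genes as a list had a median log2 fold of -0.14, against -0.01 for all genes, with 27 lower and 13 higher. The share higher was 32.5%, against 49.3% of all genes. Talin, kindlin and focal adhesion genes were lower for 6 of 7, with a median of -0.48, and beta chains for 5 of 6, with a median of -0.22. Alpha chains were lower for 2 of 4 (median 0.005) and contact receptors for 5 of 9 (-0.01). The group of CD44 and selectin ligands was lower for 4 of 6 (-0.14) and the Rap1 pathway for 5 of 8 (-0.08). Other measures differed between these arrays. Granulocyte markers summed to 7458.2 on the cKO and 771.9 on the control array, with 7 and 6 of 7 above the floor, and myeloid and dendritic cell markers to 18449.6 and 35909.3, with 9 and 8 of 9. The beta-actin ratio was 1.56 on the cKO and 1.93 on the control array. Plasma cell markers summed to 25337.3 on the cKO and 12411.4 on the control array, with 5 of 5 above the floor on both, of which Igha read 14979.8 and 2754.2. The cycling genes Mki67 and Cdk1 read 5261.4 and 1652.8 on the cKO array, against 1259.9 and 330.4 on the control array. B cell markers summed to 13239.8 on the cKO and 15638.9 on the control array, of which Ighm read 9364.8 and 12987.0. Gene by gene the B cell markers leaned the other way, with a median log2 fold of 0.69. Cd79a, Ms4a1 (1284.9 against 297.4) and Pax5 were at least 2-fold higher on the cKO array, and 0 were at least 2-fold lower. Erythroid markers summed to 164.5 on the cKO and 532.8 on the control array. The part of these in the adhesion gene differences was not tested.

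In regulatory cells 0 of 39 measured genes were at least 2-fold higher or lower on the cKO array, where 3.14% and 2.12% of all 14575 genes were. The widest differences were in Git1, which read 130.5 on the cKO and 259.2 on the control array, 1.99-fold lower, and in Alcam (315.8 against 512.7) and Pecam1 (975.1 against 1567.9), 1.62-fold and 1.61-fold lower. Of 4 other Alcam probe sets 2 went the other way. Vcl read 181.0 against 116.4, 1.56-fold higher. By the chosen probe sets the integrin chains stayed close, from a log2 fold of -0.08 for Itgb2 to 0.36 for Itgb8. Some dimmer probe sets differed more. The other Itgb3 probe set had a log2 fold of -1.61, and 1 of 4 further Itga4 probe sets one of -1.24. Of 2 further Itgb5 probe sets measured here, the log2 folds were -0.09 and 0.88. The 39 genes had a median log2 fold of -0.07 and all genes one of -0.02. Other measures differed between these arrays too. Granulocyte markers summed to 2711.0 on the cKO and 1278.6 on the control array, and erythroid markers to 73.4 and 239.7. Mki67 and Cdk1 read 2395.5 and 716.9 on the cKO array, against 1074.5 and 292.9 on the control array. Igha read 5947.4 on the cKO and 13170.1 on the control array. Myeloid and dendritic cell markers were close, at 6122.5 and 6454.0. The part of these in the adhesion gene differences was not tested.

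**Figure D4:**
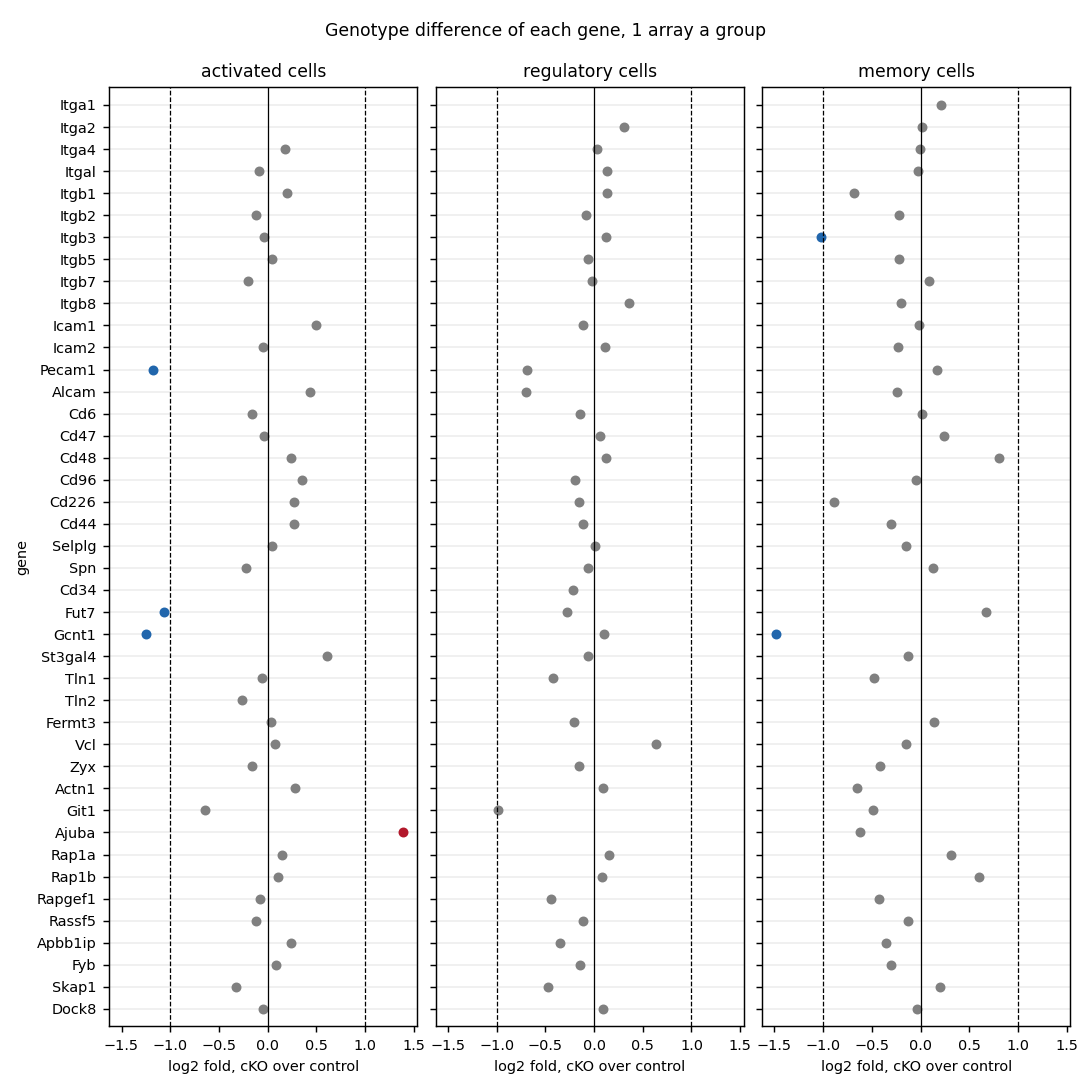
Log2 fold of the cKO over the control array for each gene in each population, 1 array a group; dashed lines mark 2-fold, coloured points lie past it, and genes under the floor on both arrays have no point. Most points lie near 0, and 4 genes in activated, 0 in regulatory and 2 in memory cells lie past 2-fold.

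Gcnt1 was past 2-fold in both activated and memory cells and read 403.9 on the cKO and 375.9 on the control array of regulatory cells. Across the 3 populations, which share no array in this comparison, 9 of the 36 genes measured in all had 1 direction throughout, against 2962 of all 10376 such genes (28.5%). Higher on the cKO array were Cd48, Rap1a and Rap1b, and lower were Itgb2, Tln1, Zyx, Git1, Rapgef1 and Rassf5. These directions are those of the chosen probe sets. For Rap1a, Rap1b, Tln1, Zyx and Rapgef1 a further probe set went the other way in at least 1 population. The other Rapgef1 probe set had a log2 fold of 1.21 in memory cells. Git1, whose narrowest difference was the widest among these 9, read 210.7 against 328.6 in activated cells, 130.5 against 259.2 in regulatory cells, and 322.2 against 452.1 in memory cells, lower on the cKO array by 1.56-fold, 1.99-fold and 1.40-fold. No gene was past 1.5-fold in 1 direction in all 3. In the limma fit the genotype term called 0 of the 42 genes (lowest adjusted p = 0.824) and 0 of 15798 in all (0.0%), with 1 adhesion gene and 461 genes in all at an unadjusted p under 0.05. The error of this term is the variation of the genotype difference between populations. It therefore tests only a difference alike in all 3, and not one within a population.

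Of the further adhesion genes, those past 2-fold and above the floor on both arrays were few. With genes above the floor on only 1 array included, 1 of 81 measured was higher and 0 lower in activated cells. In regulatory cells 1 of 103 was higher and 3 lower, and in memory cells 2 of 97 and 3. Over all genes 0.391% were higher and 0.372% lower in activated, 3.14% and 2.12% in regulatory, and 5.62% and 3.64% in memory cells. In activated cells Itga9, for alpha9, read 137.8 on the cKO and 68.5 on the control array. Itga7, for alpha7, read 127.8 against 284.1 in regulatory cells. In memory cells Itgae, Tns3 and Tns1, the last 2 for tensins, were 2.14-fold, 2.12-fold and 2.02-fold lower, and Rap1gap2, for an inhibitor of Rap1, was 2.15-fold higher on the array labelled cKO.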

How the data were processed

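Per the submitters' processing notes the deposited array intensities, called signals, were made with MAS5; no version or setting was known here. Each deposited column had a trimmed mean of 500.003 (2% left out at either end), so the authors had scaled the arrays to 1 trimmed mean. From the 45101 probe sets, 64 controls were set aside, and 34945 with 1 gene symbol gave 18193 genes, each read by its brightest probe set over the 6 arrays. The Entrez identifiers of all 42 adhesion genes matched a RefSeq table of GRCm38.p6.

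Within a population the genotypes were compared by log2 folds with no test. Populations and the genotype term were tested with limma 3.58.1 in R 4.3.3 (additive model, empirical Bayes, Benjamini-Hochberg), a fit tested on simulated data. P-values rest on the spread left after population and genotype were fitted, in samples that the labels do not tie to separate animals. The number of arrays limits the precision.

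The genes, the role groups, the list of 117 further adhesion genes and the markers were chosen with earlier results of these data known. Values on all arrays are given for genes past 2-fold between genotypes or past 1.5-fold in 1 direction in all 3 populations (none), up to 6 called genes in each population contrast, by size, and the gene of each role group with the highest mean signal; the others were named to describe their group. Of the further genes, up to 3 each way past 2-fold and above the floor on both arrays are named for each genotype comparison. Alternatives were quantile normalization, cyclic loess, no floor (signals raised to 1), a floor at the 60th percentile, the mean of the probe sets, a variance trend, the fit without both memory arrays, each genotype's arrays alone, and, chosen after seeing the data, the fit without the memory array labelled cKO.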

Additional observations from a re-analysis of the deposited data

How the results depend on the processing

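The lower calls in activated cells held under most settings. Against memory cells 25 genes were lower, and 19 to 25 of these were kept under the 7 alternatives fitted; against regulatory cells 17 to 20 of 20 were kept under 8. Lower calls lost in at least 1 alternative were those of Itga2, St3gal4, Rapgef1 and Rassf5 in both comparisons, and of Icam1, Cd47 and Spn against memory cells. The higher calls held less well: against memory cells 5 became 2 without the cKO memory array, 3 with no floor and 0 with the mean of the probe sets, and against regulatory cells 6 became 3 under each of these, of which 2 were among the 6 with the mean of the probe sets. Actn1 turned to -0.21 against regulatory cells with the mean of its probe sets, 2 of which are lower. Between regulatory and memory cells the lower count, 1, became 5 with a variance trend and 5 with the 60th percentile floor, where 1 gene was also higher, and 0 without the cKO memory array, with quantile normalization, cyclic loess, no floor or the mean of the probe sets. Over all genes that contrast had 9 higher and 52 lower calls, against 88 and 191 with the trend, 188 and 274 with the 60th percentile, 4 and 30 with the mean of the probe sets, and 0 of either with quantile normalization, cyclic loess, no floor or the cKO memory array left out. Without that array the counts over all genes against memory cells were 1591 and 2634, against 2754 and 4282. With no floor there were 1779 higher against memory and 1863 against regulatory cells, against 2754 and 2878.

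Between genotypes, the 3 genes at least 2-fold lower in activated cells became 1 with quantile normalization and 0 with the higher floor, and the 2 in memory cells became 1 with cyclic loess and with that floor. In regulatory cells 0 became 1 lower with quantile normalization and 2 higher with no floor. Over all genes the counts past 2-fold moved more: in activated cells 42 higher and 40 lower became 1685 and 1662 with no floor, 115 and 83 with loess, 25 and 19 with the mean of the probe sets, and 17 and 9 with the higher floor. In memory cells 800 and 518 became 2853 and 2002, 585 and 481, 496 and 345, and 258 and 221 under the same settings. In regulatory cells 458 and 309 became 2171 and 1766, 220 and 201, 258 and 180, and 39 and 39, and 260 and 259 with quantile normalization. Causes other than fewer arrays, genes or probe sets were not tested. The genotype term called 0 adhesion genes under every alternative fitted, with 1 to 4 at an unadjusted p under 0.05. Differences from each genotype's arrays alone kept the direction of all calls. No paired analysis was possible because each group holds 1 array and the labels carry no replicate numbers.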
